A study of Mus musculus with 17 samples.

Results

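The genes described here make up the T cell receptor, its coreceptors, and the checkpoint and effector molecules of T cells. The 39 members are a list of symbols, drawn up with earlier results of these data known, that were looked up in every table of the series. The RNA-seq table held 25 of them among 20328 genes, and the single-cell table held all 39 among 26624 genes. H3K27ac CUT&RUN regions were assigned to 4 members among 11424 regions, and ATAC-seq regions to 3 members among 3582 regions.

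All groups were wild-type ICR mice that were 8 weeks old at surgery, and the labels name the tissue only as brain. Sham mice received no toxin. The 6-OHDA group received 6-hydroxydopamine at 10 µg/µl on 1 side of the substantia nigra, a lesion that kills dopaminergic neurons and serves as a model of Parkinson's disease (PD), followed by saline. The 6-OHDA+NDST3 group received the same lesion and, 5 days later, 2 µl of an AAV9 vector that carries human NDST3, a heparan sulfate deacetylase and sulfotransferase, under the CMV promoter, which is not restricted to 1 cell type. None of the samples received a vector without NDST3, so NDST3 and the vector cannot be told apart in comparisons with the 6-OHDA+NDST3 group. RNA-seq covered 2 sham, 1 6-OHDA and 2 6-OHDA+NDST3 libraries. CUT&RUN covered 2 samples of each group pooled into 1 column, and ATAC-seq covered 1 sample of each group. The single-cell table gave means for 9 clusters in 1 6-OHDA and 1 6-OHDA+NDST3 library, and a sham single-cell sample was not analysed here. Nothing in the labels says whether the RNA-seq libraries of a group came from separate animals, so p-values measure only the spread between these libraries.

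The T cell receptor recognises antigen through its variable chains and signals through the CD3 chains and the zeta chain, with CD4 or CD8 as coreceptor. The kinases LCK and ZAP70 carry the signal inward, CD28 and ICOS amplify it, and checkpoint receptors such as PD-1, CTLA-4 and LAG-3 restrain it. T cells are rare in the healthy brain and enter it after injury and in neurodegeneration, and several checkpoint receptors, LAG-3 and TIM-3 among them, are also made by other immune cells.

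Promoter sequences are shown for the members on which the results turn, namely the receptor genes Cd3e and Cd3g, the coreceptor gene Cd8a and the checkpoint genes Ctla4, Pdcd1 and Havcr2. Each run is the 250 bases before the transcription start, 5′ to 3′ on the strand of the gene, from RefSeq on GRCm38.p6. The positions are chr9:45009612-45009861 on the minus strand for Cd3e, chr9:44980432-44980681 on the minus strand for Cd3g, chr6:71373177-71373426 on the plus strand for Cd8a, chr1:60908775-60909024 on the plus strand for Ctla4, chr1:94052554-94052803 on the minus strand for Pdcd1, and chr11:46454681-46454930 on the plus strand for Havcr2. Capitals mark matches on either strand to 4 short core motifs of transcription factor families that act in T cells and in many other cells. The ETS family motif was searched as AGGAAG. The RUNX family motif was searched as TGTGGT. For the TCF and LEF factors, which include the members Tcf7 and Lef1, the letters were CTTTGA. For the GATA family the letters were AGATAA. No motif overlaps another by its letters within these windows.
Cd3e: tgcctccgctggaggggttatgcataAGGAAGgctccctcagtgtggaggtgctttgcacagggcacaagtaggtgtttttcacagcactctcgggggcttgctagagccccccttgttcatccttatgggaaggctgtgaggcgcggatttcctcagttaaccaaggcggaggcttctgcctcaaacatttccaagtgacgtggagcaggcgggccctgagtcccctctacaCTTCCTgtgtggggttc
Cd3g: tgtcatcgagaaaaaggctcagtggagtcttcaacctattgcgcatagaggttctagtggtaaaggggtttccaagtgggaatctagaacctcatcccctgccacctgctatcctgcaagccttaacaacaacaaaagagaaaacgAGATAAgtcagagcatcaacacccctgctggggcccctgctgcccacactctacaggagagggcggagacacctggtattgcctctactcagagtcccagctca
Cd8a: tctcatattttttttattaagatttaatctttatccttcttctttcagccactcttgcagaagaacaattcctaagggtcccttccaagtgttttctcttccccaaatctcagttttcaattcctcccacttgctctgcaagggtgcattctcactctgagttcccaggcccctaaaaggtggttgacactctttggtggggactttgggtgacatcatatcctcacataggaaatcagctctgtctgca
Ctla4: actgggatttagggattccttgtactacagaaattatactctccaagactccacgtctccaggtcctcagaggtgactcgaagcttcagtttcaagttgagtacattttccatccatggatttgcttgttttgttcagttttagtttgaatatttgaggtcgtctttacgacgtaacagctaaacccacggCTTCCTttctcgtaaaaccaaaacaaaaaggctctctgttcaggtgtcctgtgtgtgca
Pdcd1: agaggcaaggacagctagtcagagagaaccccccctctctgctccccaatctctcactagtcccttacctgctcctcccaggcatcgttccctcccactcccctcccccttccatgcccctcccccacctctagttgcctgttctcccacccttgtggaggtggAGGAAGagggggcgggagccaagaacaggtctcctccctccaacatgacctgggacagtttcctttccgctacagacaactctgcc
Havcr2: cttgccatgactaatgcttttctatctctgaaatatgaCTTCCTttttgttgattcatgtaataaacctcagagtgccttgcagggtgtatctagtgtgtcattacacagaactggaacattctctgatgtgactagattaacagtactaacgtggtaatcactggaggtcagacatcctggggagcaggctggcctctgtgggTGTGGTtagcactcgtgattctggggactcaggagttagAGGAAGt
The ETS letters stood 224 and 17 bases before the start of Cd3e, 59 bases before Ctla4 and 86 bases before Pdcd1. In Havcr2 they stood 212 and 7 bases before the start, with the RUNX letters at 46 bases. The GATA letters stood 104 bases before Cd3g, and none of the 4 motifs was found in the Cd8a window. The RefSeq table held 37 windows of 27 members among 32851 windows in all. The ETS letters were in 19 of the 37 windows (51.4%, against 29.5% of all windows), the RUNX letters in 9 (24.3%, against 14%), the TCF/LEF letters in 4 (10.8%, against 13.8%) and the GATA letters in 3 (8.11%, against 9.99%). These matches are descriptions of sequence and not binding sites. Trac, Trbc2, Trdc, Cd2, Cd4, Cd6, Cd8b1, Cd28, Il2rb, Icos, Lag3 and Tox had no window.

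The 5 RNA-seq libraries held between 51003699 and 70533326 counts. The table lists only genes with at least 1 count in every library, so a gene that is not listed is not shown to be at 0. Levels per library are given as CPM, the counts scaled to a common library total. The lesion was visible in Th, the rate-limiting enzyme of dopamine synthesis, at 115 and 135 CPM in sham, 2.15 in 6-OHDA, and 11.5 and 8.03 in 6-OHDA+NDST3. Microglia markers summed to 504 and 379 CPM in sham, 2838 in 6-OHDA, and 1025 and 1631 in 6-OHDA+NDST3. In whole tissue, fewer cells of a type and less RNA per cell cannot be told apart.

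Of the chains of the T cell receptor, Trac was clearly detected in brain tissue and the CD3 chains were not listed. Of the 7 receptor genes, Cd3d, Cd3e and Cd3g were not listed, and of the 9 coreceptor and surface genes Cd6, Cd8a, Cd8b1, Cd27 and Icos were not listed. Ctla4 and the regulatory T cell factor Foxp3 were also not listed, nor were the effector genes Gzmb, Prf1, Nkg7 and Ifng, which leaves 25 members with values. Of these, 9 stayed under 1 CPM in every library, 3 of them under 0.5 CPM, and 9 were above 1 CPM in every library. The highest per length in sham were Lag3 at 5.17, Tox at 4.87, Lef1 at 3.83 and Trac at 3.02 mean FPKM, against 0.115 for Cd4 and 0.00985 for Themis. All 25 entered the test, and a gene could pass the filter on low counts through the single 6-OHDA library alone.

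The checkpoint receptors Lag3, Pdcd1 and Havcr2 rose after the lesion and stayed above sham in every lesioned library. Lag3, an inhibitory receptor that binds MHC class II, stood at 13.4 and 9.79 CPM in sham, 107 in 6-OHDA, and 55.3 and 84.0 in 6-OHDA+NDST3. Every lesioned library was above both sham libraries, and the 6-OHDA library was the highest. The log2 fold change of Lag3 in 6-OHDA against sham was 3.21 ± 0.30 (standard error), with adjusted p = 0.00823 by edgeR's quasi-likelihood test. Havcr2, which encodes TIM-3, stood at 7.09 and 3.91 CPM in sham, 53.8 in 6-OHDA, and 16.1 and 29.3 in 6-OHDA+NDST3. Its groups did not overlap, with 6-OHDA+NDST3 between the others, and the change in 6-OHDA was 3.30 ± 0.47 on the log2 scale (edgeR adjusted p = 0.00994). Pdcd1, which encodes PD-1, stood at 0.815 and 0.507 CPM in sham, 7.92 in 6-OHDA, and 4.15 and 5.95 in 6-OHDA+NDST3, on counts of 42, 35, 409, 247 and 355. The 2 treated libraries lay between sham and 6-OHDA, and the change in 6-OHDA was 3.59 ± 0.40 on the log2 scale (edgeR adjusted p = 0.00823). Per length, Lag3 went from 5.17 to 49.9 FPKM, Havcr2 from 1.89 to 18.6 and Pdcd1 from 0.318 to 3.87. Tigit, the other listed checkpoint, stood at 94 and 87 counts in sham, 124 in 6-OHDA, and 94 and 75 in 6-OHDA+NDST3, with a log2 fold change of 0.64 in 6-OHDA (edgeR adjusted p = 0.252). Per length Tigit was far below the other 3, at 0.0577 mean FPKM in sham and 0.0904 in 6-OHDA.

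Among costimulatory and coreceptor genes, Cd28 rose after the lesion on few reads. Cd28 had 13 and 3 counts in sham, 105 in 6-OHDA, and 14 and 47 in 6-OHDA+NDST3. The 6-OHDA library was the highest, and the log2 fold change in 6-OHDA was 3.84 ± 1.04 (edgeR adjusted p = 0.0435), with 5.48 without sham replicate 1 and 3.0 without sham replicate 2, which also ended its 2-fold call. Cd4, the coreceptor of helper T cells and also a gene of macrophages, stood at 0.524 and 0.275 CPM in sham, 1.49 in 6-OHDA, and 0.386 and 1.31 in 6-OHDA+NDST3. For Cd4, treated replicate 1 lay within the sham range and replicate 2 near 6-OHDA, and its change in 6-OHDA, 1.91 ± 0.81 on the log2 scale, did not pass (edgeR adjusted p = 0.127). Cd2 and Cd5, adhesion and inhibitory molecules of the T cell surface, had between 4 and 36 counts in any library and passed no call.

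None of the 4 listed receptor chains passed the adjusted p by edgeR in 6-OHDA, with log2 fold changes of 1.36 for Cd247, 1.30 for Trdc, 0.82 for Trbc2 and -0.90 for Trac. Trac, the constant region of the alpha chain, stood at 3.18 and 2.84 CPM in sham, 1.61 in 6-OHDA, and 2.59 and 4.07 in 6-OHDA+NDST3. The 6-OHDA library was the lowest and the other groups overlapped. Its log2 fold change was -0.90 ± 0.39 in 6-OHDA against sham (edgeR adjusted p = 0.136), and 1.05 ± 0.40 in 6-OHDA+NDST3 against 6-OHDA (raw p of 0.0462, edgeR adjusted p = 0.126). Cd247, the zeta chain, stood at 0.408 and 0.492 CPM in sham, 1.16 in 6-OHDA, and 0.386 and 1.89 in 6-OHDA+NDST3. Its 2 treated libraries were the lowest and the highest of the 5, and its change in 6-OHDA was 1.36 ± 0.92 on the log2 scale (edgeR adjusted p = 0.298). Trbc2, a constant region of the beta chain with a near-identical copy that could share its reads, had 30 to 59 counts, and Trdc, of the delta chain, 16 to 54 counts. Neither passed a call.

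Of the proximal signalling genes, the phosphatase Ptpn22 rose and the kinases Lck and Zap70 passed no call. Ptpn22 stood at 0.388 and 0.232 CPM in sham, 1.47 in 6-OHDA, and 0.42 and 0.503 in 6-OHDA+NDST3. The treated libraries were just above sham and far below 6-OHDA, and the log2 fold change in 6-OHDA was 2.26 ± 0.47 (edgeR adjusted p = 0.0219). Lck stood at 1.05 and 1.48 CPM in sham, 1.97 in 6-OHDA, and 1.31 and 1.81 in 6-OHDA+NDST3, with a log2 fold change of 0.64 ± 0.41 (edgeR adjusted p = 0.272). Zap70 had 144 and 112 counts in sham, 124 in 6-OHDA, and 90 and 275 in 6-OHDA+NDST3, with both extremes in the treated group. Themis, a T cell development adaptor, had 5, 2, 13, 4 and 4 counts in the same order, too few reads for a firm value. It passed the filter on low counts through the 6-OHDA library alone, so its 2-fold call is not read as a rise. Its log2 fold change in 6-OHDA was 2.04 ± 0.78 (raw p of 0.0476, edgeR adjusted p = 0.101). The 2-fold call of Themis held only without sham replicate 1 among the 4 fits that left out 1 library.

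Tox was the 1 member called lower by adjusted p after the lesion. Tox, a transcription factor of exhausted T cells that neurons also use, stood at 16.9 and 19.5 CPM in sham, 10.2 in 6-OHDA, and 16.7 and 21.8 in 6-OHDA+NDST3. The 6-OHDA library was the lowest of the 5, and the treated pair bracketed the sham pair. Its log2 fold change was -0.84 ± 0.22 in 6-OHDA (edgeR adjusted p = 0.0425). It was 0.91 ± 0.23 in 6-OHDA+NDST3 against 6-OHDA (raw p of 0.0101, edgeR adjusted p = 0.0551). The 8 neuron markers all fell in 6-OHDA, with a median log2 fold change of -1.57 and sums of 6234 and 6994 CPM in sham, 2302 in 6-OHDA, and 5606 and 4832 in 6-OHDA+NDST3. Their part in the Tox values was not tested. Lef1 and Tcf7, partners of beta-catenin in T cell development, passed no adjusted call by edgeR, whereas limma on log2 FPKM called Tcf7 in both comparisons with 6-OHDA. Lef1 had 657 and 1168 counts in sham, 1286 in 6-OHDA, and 890 and 2138 in 6-OHDA+NDST3. Thalamus neuron markers were also unequal in the treated libraries, with sums of 459 CPM in replicate 1 and 1093 in replicate 2, and their part in the Lef1 gap was not tested.

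The cytokine receptors Il7r and Il2rb were higher in 6-OHDA. Il7r, the survival receptor of resting T cells and also a gene of innate lymphoid and some myeloid cells, stood at 1.16 and 0.941 CPM in sham, 7.09 in 6-OHDA, and 1.09 and 2.35 in 6-OHDA+NDST3. The treated replicate 1 lay within the sham range, and 6-OHDA was far above all others. The log2 fold change of Il7r was 2.75 ± 0.50 in 6-OHDA (edgeR adjusted p = 0.0155). It was -2.04 ± 0.49 in 6-OHDA+NDST3 against 6-OHDA (raw p of 0.009, edgeR adjusted p = 0.0529). Without 6-OHDA+NDST3 replicate 1 the latter was -1.60, and without replicate 2 it was -2.73. Il2rb, the beta chain of the IL-2 and IL-15 receptors, stood at 0.718 and 0.333 CPM in sham, 2.27 in 6-OHDA, and 0.504 and 1.37 in 6-OHDA+NDST3. Its change of 2.12 ± 0.74 had a raw p of 0.0353 (edgeR adjusted p = 0.0808), and its 2-fold call was lost without either sham library. Il2ra, the high-affinity IL-2 receptor chain, had 10 to 31 counts, and Il23r, the receptor of IL-23, had 9 to 13.

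The effector gene Gzma, a granzyme of cytotoxic cells, had 8 and 8 counts in sham, 33 in 6-OHDA, and 11 and 10 in 6-OHDA+NDST3. The 6-OHDA library stood apart and the other 4 lay close together. Its log2 fold change was 2.23 ± 0.48 in 6-OHDA (edgeR adjusted p = 0.0239) and -1.85 ± 0.47 in 6-OHDA+NDST3 against 6-OHDA (raw p of 0.0115, edgeR adjusted p = 0.0587). Gzmk had 15 and 24 counts in sham, 17 in 6-OHDA, and 36 and 18 in 6-OHDA+NDST3, with no call.

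**Figure D1:**
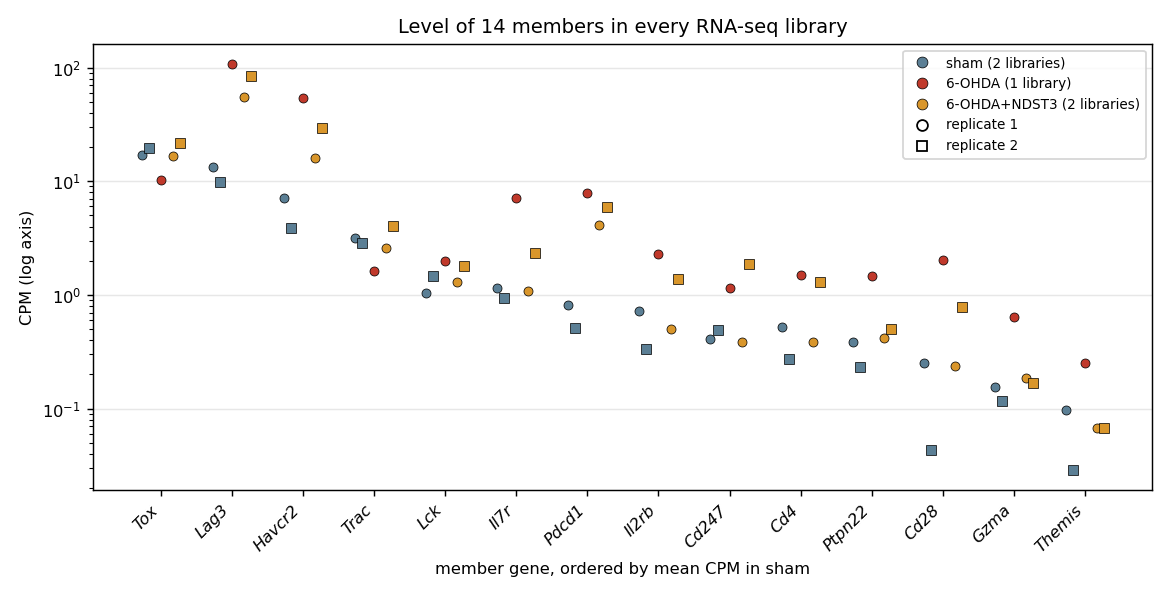
CPM on a log axis of 14 members in each of the 5 RNA-seq libraries, coloured by group, with circles for replicate 1 and squares for replicate 2. Lag3, Havcr2 and Pdcd1 were above both sham libraries in all 3 lesioned libraries, whereas for Tox and Trac the 6-OHDA library was the lowest.

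Across the whole list, 7 members rose and 1 fell in 6-OHDA against sham by adjusted p under 0.05. Of all 19300 genes tested, 18.8% were called higher and 17.1% lower. By the rule of a 2-fold change with raw p under 0.05, 9 members were higher and 0 lower, against 14.4% and 10.1% of all genes. Themis is among the 9 and entered the test through the 6-OHDA library alone. The median log2 fold change of the 25 members was 1.36, and that of all genes was -0.00. The single 6-OHDA library has no replicate and is taken to vary as much as the replicated groups do. No adjusted call, of members or of all genes, held with either sham library left out, by edgeR on 1 residual degree of freedom. By the 2-fold rule, Lag3, Pdcd1, Havcr2, Ptpn22, Gzma and Il7r were called in all 4 fits that left out 1 library, 6 of the 9.

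In 6-OHDA+NDST3 against 6-OHDA, 17 of the 25 members had a negative log2 fold change, and none passed the adjusted p by edgeR. Of all genes, 9.06% passed as higher and 6.59% as lower. A raw p under 0.05 was found for 7 of the 25 members and for 7321 of the 19300 genes. DESeq2 called 3 members at adjusted p under 0.05, with Havcr2 and Il7r lower and Tox higher, and 26.9% of all genes. By the 2-fold rule 1 member was higher, Trac, and 4 were lower, Havcr2, Ptpn22, Gzma and Il7r, against 7.30% and 8.37% of all genes. Havcr2 had a log2 fold change of -1.24 ± 0.46 (raw p of 0.0432) and Ptpn22 of -1.67 ± 0.46 (raw p of 0.0156). Lag3 and Pdcd1 were at -0.62 ± 0.30 and -0.65 ± 0.38, which passed neither rule. The median of the members was -0.62, against 0.00 for all genes. Only Il7r and Gzma kept the 2-fold call in all 4 fits that left out 1 library.

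In 6-OHDA+NDST3 against sham, Lag3, Pdcd1 and Havcr2 were the 3 members past the 2-fold rule, all higher. Their log2 fold changes were 2.59 ± 0.27, 2.94 ± 0.36 and 2.05 ± 0.41, with raw p of 0.000214, 0.000455 and 0.00428. Of all genes, 4.78% were higher and 1.08% lower by that rule. By adjusted p, edgeR called 0% of all genes in either direction, and the 3 members had adjusted p of 0.152, 0.152 and 0.168. In that fit 3 members and 2744 genes had a raw p under 0.05, and DESeq2 called these 3 members and 5.3% of all genes at adjusted p under 0.05. Without 6-OHDA+NDST3 replicate 1, edgeR called Lag3 (adjusted p = 0.0451) and the 2-fold rule called 10 members. The median of the members was 0.66, against 0.01 for all genes. The 3 comparisons share libraries and are not independent of each other.

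The treated libraries differed from each other in these genes. Of the 25 members, 20 were higher in 6-OHDA+NDST3 replicate 2 than in replicate 1, whereas 49.6% of all genes were. The 6-OHDA library was the highest of the 5 for 15 members, against 38.1% of all genes. The members summed to 69.3 and 65.6 CPM in sham, 239 in 6-OHDA, and 122 and 205 in 6-OHDA+NDST3. The 9 listed T cell markers (Cd247, Trac, Trbc2, Cd2, Cd5, Lck, Zap70, Themis and Cd28, all members) summed to 8.83, 7.07, 11.2, 7.22 and 15.2 CPM in the same order. Of these 9, Cd28 alone passed the adjusted p in 6-OHDA.

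**Figure D2:**
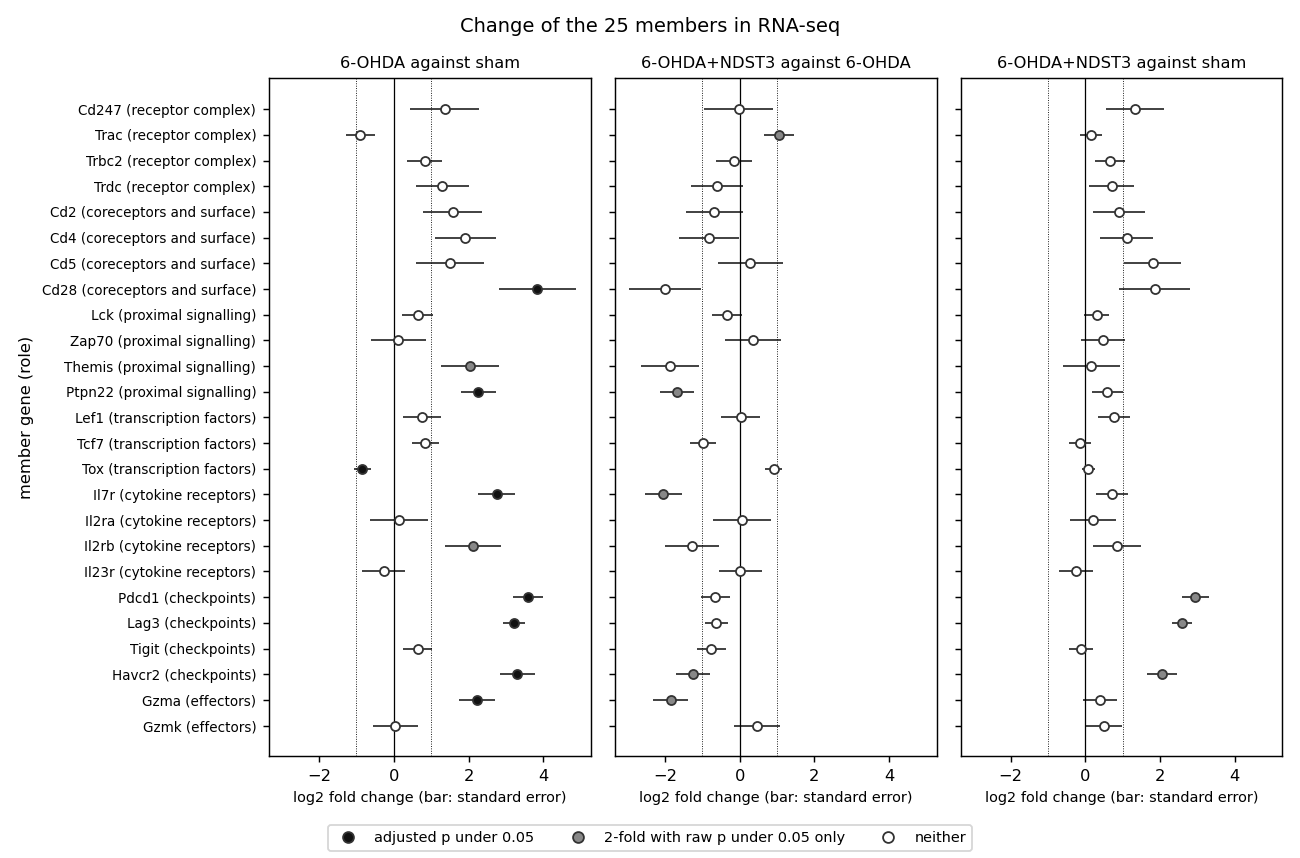
Log2 fold change with standard error of the 25 listed members in the 3 comparisons, ordered by role, with black points past adjusted p under 0.05, grey points past the 2-fold rule only and white points past neither. Checkpoint genes other than Tigit sit far right in the left and right panels, and Trac and Tox sit left of 0 in the left panel and right of it in the middle panel.

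Microglia markers, and some markers of monocytes and neutrophils, were higher in 6-OHDA together with the checkpoint genes, and those of B and NK cells went both ways. The 8 microglia markers had a median log2 fold change of 2.60 in 6-OHDA, 7 of them called higher by adjusted p, and -1.02 in 6-OHDA+NDST3 against 6-OHDA. The 7 listed monocyte or macrophage markers summed to 204 and 44.7 CPM in sham, 2889 in 6-OHDA, and 639 and 1093 in 6-OHDA+NDST3. Lyz2 alone made up 2804 of the 2889 CPM, 3 of the 7 were called higher in 6-OHDA, the median log2 fold change was 1.12, and Cd163 stood at -0.79. The 4 neutrophil markers summed to 14.2, 10.8, 108, 37.8 and 67.2 CPM in that order. The 4 listed NK cell markers stayed between 0.941 and 2.19 CPM in sum, and 1 of them, Klrk1, rose and 1, Klrg1, fell by adjusted p in 6-OHDA. Klrg1 had 39 and 35 counts in sham and 6 in 6-OHDA. Tbx21 and Eomes had log2 fold changes of 1.80 and 1.40 without an adjusted call, and the median of the 4 was 1.60. The 6 listed B cell markers summed to 53.8 and 50.4 CPM in sham and 36 in 6-OHDA, with 2 called higher and 2 lower. Most of the sham sum came from the 2 called lower, Pax5 at 22.5 and 19.4 CPM and Ebf1 at 20.9 and 23.2. Ebf1 was also found in single-cell clusters 5, at 2.62 and 2.63, and 7, at 2.55 and 2.45. The 2 called higher were Igkc, with a log2 fold change of 2.69, and Ighm, with 1.25. The part of these cells in the Lag3, Havcr2 and Pdcd1 values of whole tissue was not tested, and the single-cell means below give the clusters in which each gene was found.

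Lists of related genes had positive medians in 6-OHDA. Their counts stand against the 18.8% of all genes called higher in 6-OHDA and the 6.59% called lower in 6-OHDA+NDST3 against 6-OHDA. Of 23 other genes of T cell receptor signalling, 16 rose and 1 fell by adjusted p in 6-OHDA (median log2 fold change 1.19), and 6 fell in 6-OHDA+NDST3 against 6-OHDA (median -0.71). The largest changes there were in Cd53, a tetraspanin of all leukocytes, and in Ptprc, which encodes CD45. Cd53 stood at 11.7 and 9.1 CPM in sham, 138 in 6-OHDA, and 38.9 and 62.4 in 6-OHDA+NDST3, a log2 fold change of 3.73 in 6-OHDA. Of 17 trafficking and activation genes, 12 rose in 6-OHDA (median 2.58), and 2 fell in 6-OHDA+NDST3 against 6-OHDA (median -1.09). Cxcl9, a chemokine that attracts T cells, had 5 and 4 counts in sham, 74 in 6-OHDA, and 29 and 53 in 6-OHDA+NDST3, and Vcam1, the endothelial adhesion molecule, rose by 1.62 on the log2 scale in 6-OHDA. Of 16 genes for ligands of the members, 8 rose in 6-OHDA (median 1.48), and 2 fell in 6-OHDA+NDST3 against 6-OHDA (median -0.86). Cd48, a ligand of CD2 in mice, rose by 4.44, Cd86, the CD28 and CTLA-4 ligand, by 3.37, and Lgals9, a TIM-3 ligand, by 2.72 in 6-OHDA on the log2 scale. Lgals9 was lower by 1.17 in 6-OHDA+NDST3 against 6-OHDA (edgeR adjusted p = 0.0462). In 6-OHDA+NDST3 against sham the medians of the 3 lists were 0.48, 1.26 and 0.61.

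The single-cell table placed most members in clusters 4 and 8, with 38 detected in cluster 4 and 37 in cluster 8. Its values are means over the cells of a cluster of the natural log of 1 plus the normalized count, and the table gives no number of cells per cluster. Against doublets the authors removed cells above an upper limit of detected genes, no doublet caller is named in the sources used here, and means per cluster allow no doublet call. All 39 members had a mean over 0.1 in at least 1 cluster. Averaged over both libraries, 30 were highest in cluster 4, 6 in cluster 8, 2 in cluster 6 and 1 in cluster 7, whereas 10.4% of the 11743 genes detected were highest in cluster 4. The leading cluster was the same in both libraries for 34 of the 39 members. All 13 T cell markers were over 0.1 in clusters 4 and 8, so cluster 4 is called T cell-like, and since those markers are members, the leading cluster is a description with no test. With 1 library per group and means only, no single-cell difference has a p-value or a check against replicate error. Differences are therefore given as they stand in these 2 libraries.

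In the T cell-like cluster 4, 5 of the 7 receptor genes had means over 1 in both libraries. In the 6-OHDA and 6-OHDA+NDST3 libraries, Cd3g had means of 1.85 and 2.67, Trbc2 of 1.93 and 2.18, Cd3e of 1.62 and 2.17, Cd3d of 1.65 and 1.89, and Trac of 1.17 and 1.88. Cd247 stood at 0.859 and 1.02, and Trdc at 0.212 and 0.0423. Of the surface genes, Icos stood at 2.07 and 2.47, Cd28 at 1.60 and 1.40, Cd2 at 1.25 and 1.56, Cd6 at 0.963 and 1.36, and Cd8b1 at 0.678 and 1.44. Cd8a was at 0.504 and 1.25, above Cd4 at 0.257 and 0.279 in both libraries. Ptpn22 stood at 2.1 and 2.2, Lck at 1.54 and 1.78, Themis at 1.05 and 1.73, and Zap70 at 0.494 and 0.640. Of the effectors, Nkg7 was at 1.88 and 2.16, Gzmb at 0.360 and 0.664, Ifng at 0.424 and 0.612, Gzmk at 0.523 and 0.429, and Prf1 at 0.269 and 0.376. Foxp3 was close to the limit of 0.1, at 0.110 and 0.0896. Of the other transcription factors and cytokine receptors led by this cluster, Tox stood at 1.27 and 1.83, and Il2rb at 1.26 and 1.22.

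Lag3 and Havcr2 were led not by lymphoid clusters but by clusters with microglia markers. All 8 microglia markers were over 0.1 in clusters 3 and 6, with medians of 1.69 and 1.64 in cluster 6 in the 2 libraries. Lag3 stood at 0.946 and 1.02 in cluster 6, 0.835 and 0.979 in cluster 3, and 0.159 and 0.533 in cluster 4. Havcr2 stood at 0.752 and 0.803 in cluster 6, 0.656 and 0.677 in cluster 3, 0.538 and 0.506 in cluster 1, where 6 of 7 neutrophil markers were over 0.1, and only 0.0589 and 0.194 in cluster 4. Pdcd1, which also rose in whole tissue, was highest in cluster 4 but was also found in cluster 6, at 0.165 and 0.170, and in cluster 3, at 0.124 and 0.0978. Lef1 was highest in cluster 7, at 1.98 and 1.96, where all 6 endothelial markers were over 0.1. Tcf7 stood at 0.325 and 0.347 there, at 0.372 and 0.468 in cluster 8, where its mean was highest, and at 0.574 and 0.260 in cluster 4. Tox was also found at 0.349 and 0.303 in cluster 2, where the 6 oligodendrocyte markers and 4 to 6 of the 6 astrocyte markers were over 0.1.

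The other members led by cluster 8 were genes shared with innate lymphoid and natural killer cells. Il7r was at 1.01 and 0.896, Il2ra at 0.357 and 0.317, Gzma at 0.372 and 0.160, Trdc at 0.352 and 0.161, and Il23r at 0.260 and 0.129 in that cluster. In cluster 4, Il2ra stood at 0.248 and 0.308 and Gzma at 0.252 and 0.223. Gzma was therefore higher in cluster 4 than in cluster 8 in the 6-OHDA+NDST3 library. In cluster 8, 5 of 8 innate lymphoid markers were over 0.1 in each library, and 7 of 8 NK cell markers in 6-OHDA and 5 in 6-OHDA+NDST3. Cluster 4 had 3 and 2 of these innate lymphoid markers and 7 and 4 of these NK cell markers over 0.1. The NK cell markers were therefore not particular to cluster 8. Il7r was also found in cluster 4, at 1.01 and 0.839, in cluster 6, at 0.25 and 0.204, and in cluster 1, at 0.115 and 0.127.

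**Figure D3:**
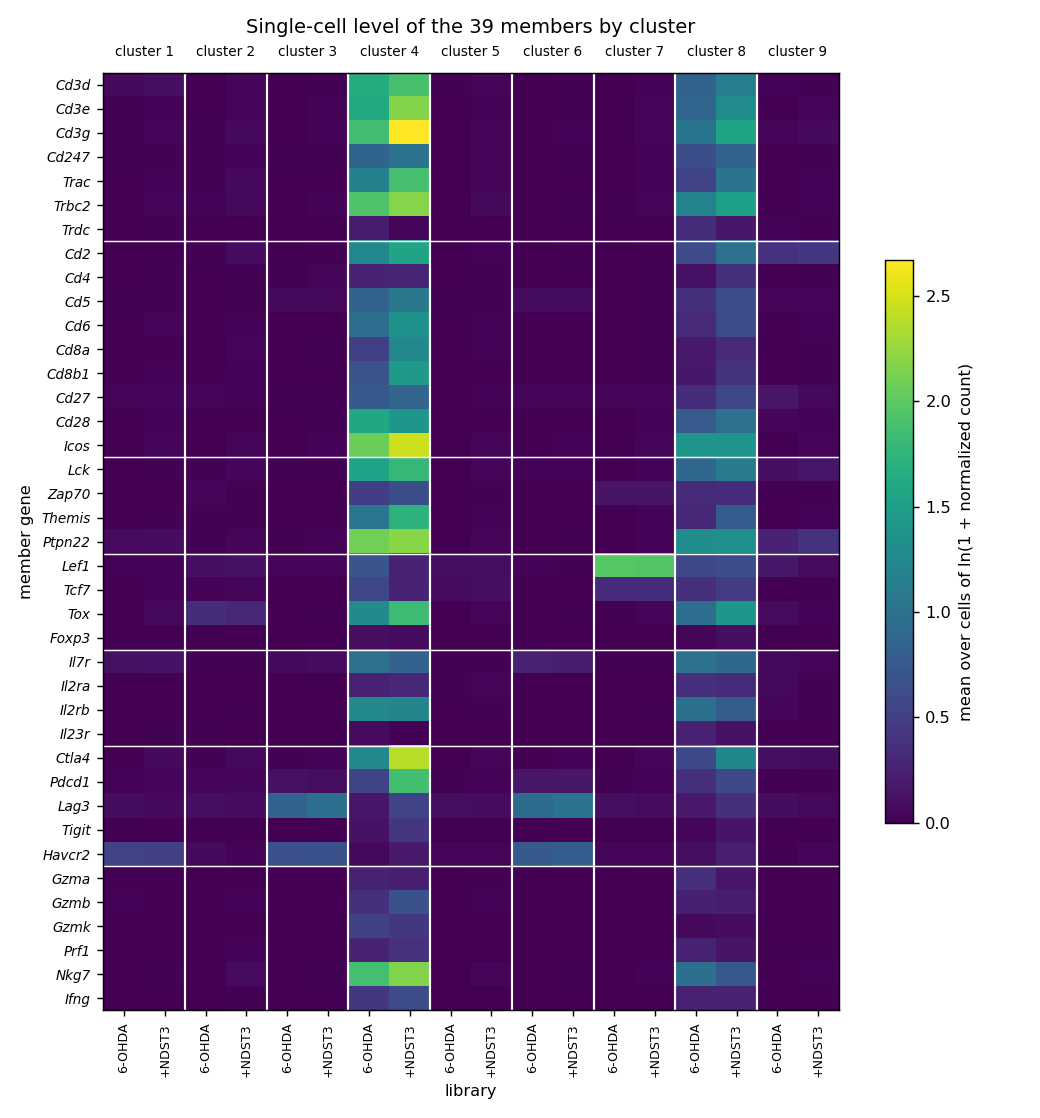
Mean of the natural log of 1 plus the normalized count, as colour, for each of the 39 members (rows, by role) in the 9 clusters, each with its 6-OHDA and its 6-OHDA+NDST3 library (columns). Clusters 4 and 8 hold most of the signal, and Lag3 and Havcr2 in clusters 3 and 6 and Lef1 in cluster 7 stand outside them.

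Within cluster 4, checkpoint, receptor and CD8 coreceptor genes were higher in the 6-OHDA+NDST3 library. On the log2 scale the difference of the means was 1.89 for Pdcd1, 1.63 for Ctla4, 1.18 for Cd3g, 1.10 for Cd8b1, 1.07 for Cd8a and 1.02 for Trac. These 6 members were among the 8 genes of 6494 detected there that were higher by at least 1, which is 0.123% of the genes, and Pdcd1 and Ctla4 ranked first and second. Another 5 genes, 0.0770%, were lower by at least 1, none of them a member. The other 2 higher genes were Uhrf2 and Rbpj, and those lower were Gm2682, Bach2, Gimap6, Sidt1 and Txk, named after their values were seen. Just short of 1 stood Themis at 0.97, Tox at 0.80 and Cd3e at 0.79, and Lag3 and Tigit were higher by 0.54 and 0.43. In the other direction stood Lef1 at -0.64, Tcf7 at -0.45, Cd28 at -0.28, Il7r at -0.25 and Trdc at -0.24. Of the 38 members detected in cluster 4, 29 were higher and 9 lower, with a median difference of 0.33, whereas 53.0% of all genes detected there were higher and their median was 0.01.

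In cluster 8 the differences were smaller and partly of another kind. Ctla4 was higher by 0.94, Cd3g by 0.75, Trac by 0.72, Themis by 0.70 and Tox by 0.65, and no member reached 1. Lef1, Tcf7 and Cd28, lower in cluster 4, were higher here by 0.07, 0.14 and 0.34. Pdcd1 was higher by 0.33, Cd8b1 by 0.32 and Cd4 by 0.34, the last from 0.132 to 0.370. Nkg7, Gzma, Il2rb and Trdc were lower, at -0.36, -0.31, -0.28 and -0.28. Of the 37 members detected there, 28 were higher and 9 lower, with a median difference of 0.25, against 55.5% higher and a median of 0.01 for all genes.

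Levels of other genes differed between the 2 libraries beside these results. The 8 NK cell markers had a median of 0.379 in 6-OHDA against 0.184 in 6-OHDA+NDST3 in cluster 4, where 7 and 4 of them were over 0.1. In cluster 8 their medians were 0.381 and 0.124, with 7 and 5 over 0.1. Receptor genes were also found at trace levels outside the lymphoid clusters. The mean of Cd3d, Cd3e, Cd3g, Trac and Trbc2 lay between 0.00351 and 0.0185 in clusters 1, 2, 3, 5, 6 and 7 in 6-OHDA, and between 0.016 and 0.0576 in the same clusters in 6-OHDA+NDST3. In each of these 6 clusters, 27 to 32 of the 39 members were higher in the 6-OHDA+NDST3 library, against 30.8% to 45.9% of all genes. That share includes genes at 0 in both libraries, which cannot be higher. Among genes over 0.1 in either library, 46.8% to 60.2% were higher in these clusters, a level that few members reached there. The part of the NK cell markers and of these trace levels in the cluster 4 differences was not tested.

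**Figure D4:**
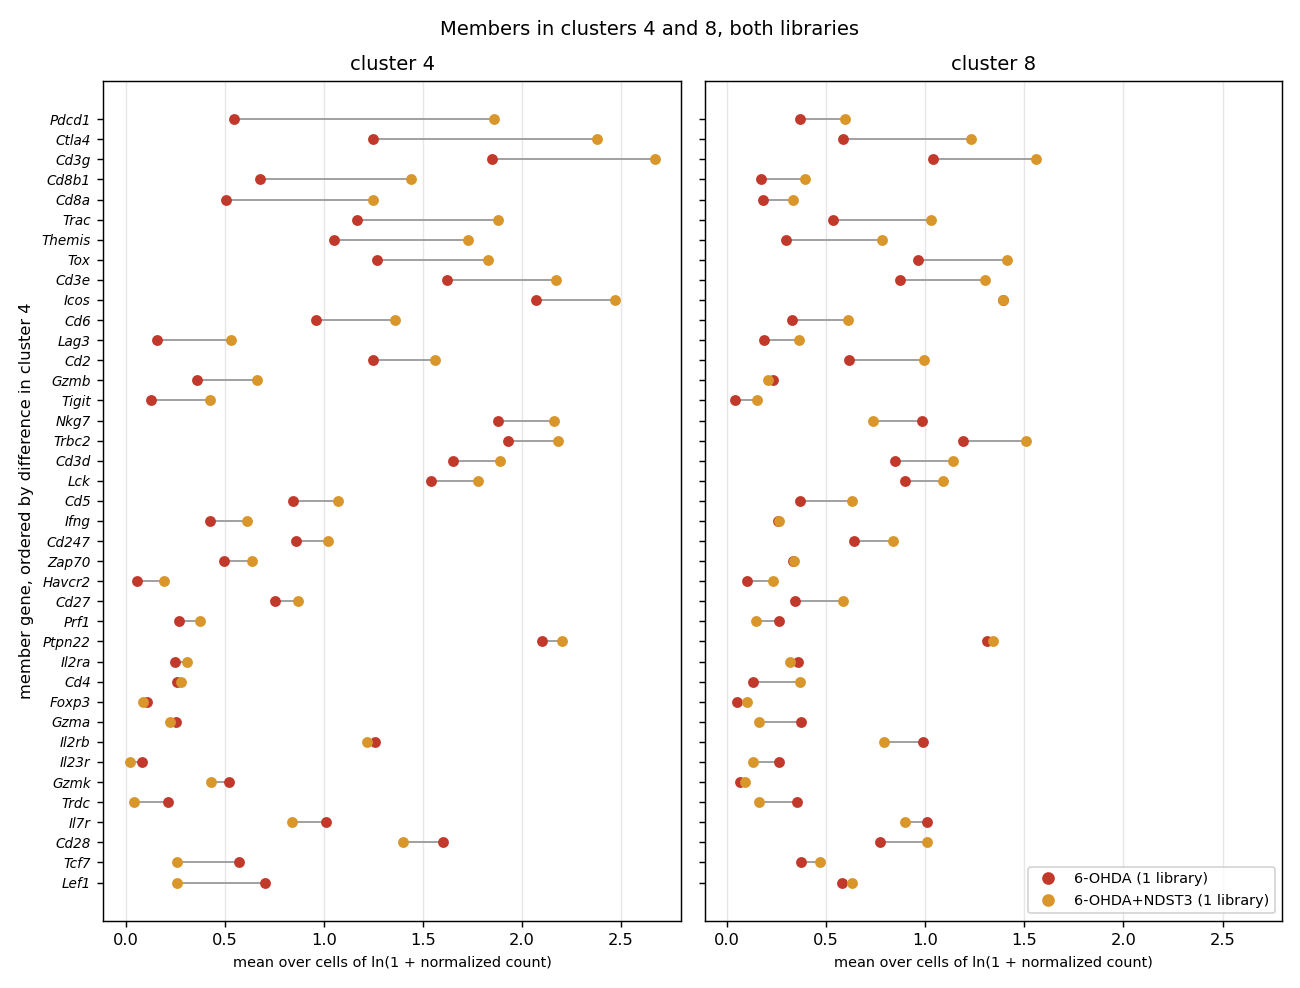
Mean of the natural log of 1 plus the normalized count of each member in clusters 4 (left) and 8 (right), in the 6-OHDA library (red) and the 6-OHDA+NDST3 library (orange), ordered by the difference in cluster 4. The widest gap was that of Pdcd1 in cluster 4, 0.546 against 1.86, with 0.366 against 0.594 in cluster 8, and Lef1 lay the other way in cluster 4, 0.702 against 0.258.

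Regions assigned to members were few, and each group is 1 column with no replicate check. Their distances are to the gene start as the tables give it. In H3K27ac CUT&RUN, a mark of active promoters and enhancers, the Tox region 273 bases after its start had a signal of 23.59 in sham, 12.45 in 6-OHDA and 23.9 in 6-OHDA+NDST3, ratios of 0.547 and 1.85 after adding 1. Tox RNA was likewise lowest in the 6-OHDA library. The Pdcd1 region 616 bases before its start had 11.73, 12.9 and 16.27 in that order, the Ptpn22 region 142 bases after its start 8.31, 11.45 and 13.63, and the Tcf7 region 302 bases before its start 2.39, 4.2 and 4.73. For these 3 the order was sham, 6-OHDA, 6-OHDA+NDST3, as it was for the medians of all regions, 14.9, 16.4 and 22.9. Of the 4 regions, 0 passed a 2-fold difference in any comparison, against 12.2% of all regions in 6-OHDA against sham, 11.0% in 6-OHDA+NDST3 against 6-OHDA and 26.1% in 6-OHDA+NDST3 against sham.

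In ATAC-seq, which measures open chromatin, the Cd3e region 56 bases after its start had 36.99 in sham, 68.25 in 6-OHDA and 57.03 in 6-OHDA+NDST3. The Cd4 region 896 bases before its start had 4.4, 9 and 18, a ratio of 3.52 in 6-OHDA+NDST3 against sham. The Il23r region 969 bases before its start had 9.8, 3.5 and 6.5, a ratio of 0.417 in 6-OHDA against sham. Those were the 2 differences past 2-fold, 1 in 6-OHDA against sham and 1 in 6-OHDA+NDST3 against sham, with 0 in 6-OHDA+NDST3 against 6-OHDA. Of all regions, 9.64%, 14.3% and 7.94% passed in these comparisons in the same order. The Cd4 and Lag3 genes lie 16112 bases apart on chromosome 6 (GRCm38.p6), and no region was assigned to Lag3.

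**Figure D5:**
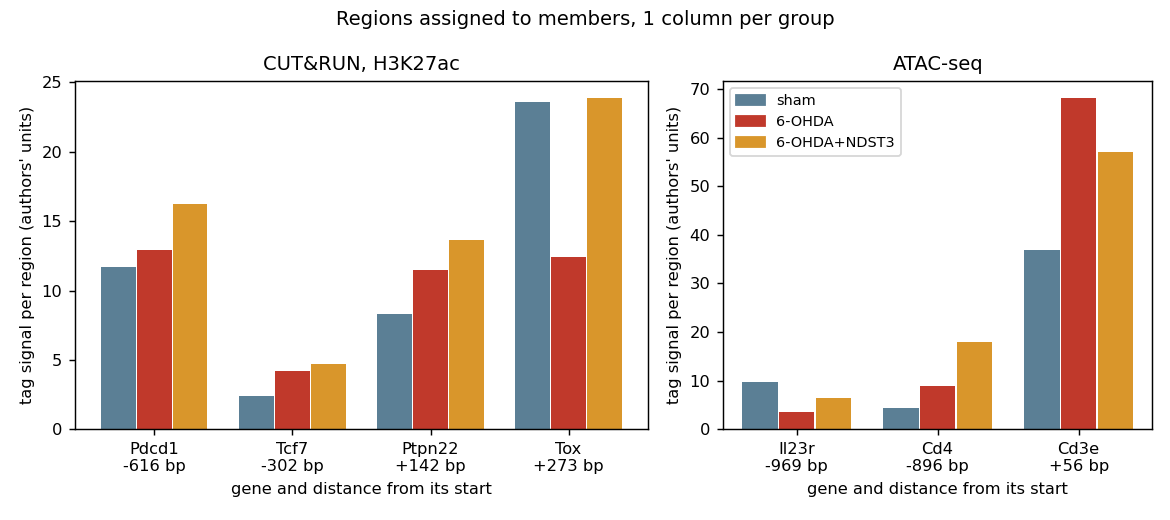
Tag signal of the 4 CUT&RUN regions (left) and the 3 ATAC-seq regions (right) assigned to members, in authors' units, with 1 bar per group and the distance from the gene start under each name. Tox dips in 6-OHDA, and Cd4 rises from 4.4 in sham to 18 in 6-OHDA+NDST3.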

How the data were processed

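Gene counts, FPKM and TPM of the 5 RNA-seq libraries were deposited by the authors, who trimmed reads with Trimmomatic, aligned them with HISAT2 and quantified them with StringTie. TPM was not tested. The authors deposited the single-cell values as means per cluster on the natural log scale after Cell Ranger. CUT&RUN (Bowtie) and ATAC-seq (Bowtie2, MACS2) were deposited as tag signal per region with 1 column per group. The labels name mm10, but the region coordinates lay within 2 kb of a GRCm38 gene end for only 4.44% (CUT&RUN) and 10.73% (ATAC-seq) of regions, so no sequence was read with them. ATAC-seq regions with an empty value (45) and single-cell rows with date-like names (26) were left out.

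Counts were tested with edgeR 4.0.16 (R 4.3.3; TMM, filterByExpr, quasi-likelihood, Benjamini-Hochberg over 19300 genes, 2 residual degrees of freedom, biological coefficient of variation 20.3%), tested on simulated data first. Calls were adjusted p under 0.05, or 2-fold with raw p under 0.05, the study's rule for RNA-seq. Alternatives used DESeq2 1.42.0, limma 3.58.1 on log2(FPKM + 1) or log2(FPKM + 0.1), other scalings, no filter, a replicate block and leaving out each replicate. In single cells a mean over 0.1 counted as detected and a difference of 1 on the log2 scale as large, and region ratios added 1 to each signal. Values in every library are given for members called in any comparison and for T cell defining genes. The members and lists were chosen with earlier results of these data known. Libraries held 51003699 to 70533326 counts, and members with few counts carry more counting error.

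Marker lists of astrocytes, oligodendrocytes, endothelial cells and dopaminergic neurons were also summed. In 6-OHDA against sham, 4 of 6 astrocyte, 1 of 6 oligodendrocyte and 3 of 6 endothelial markers rose, 6 of 6 dopaminergic markers fell, 1 of 8 thalamus markers fell, and of 8 innate lymphoid markers 1 rose and 1 fell, by edgeR adjusted p.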

Additional observations from a re-analysis of the deposited data

How the results depend on the processing

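The adjusted p called 8 members in 6-OHDA against sham, and 0 to 10 with 1 library left out. It called 0 in 6-OHDA+NDST3 against 6-OHDA, where DESeq2 called 3, no filter on low counts 1, limma on log2(FPKM + 1) 4 and on log2(FPKM + 0.1) 3, and leaving out 1 library 0 to 1. In 6-OHDA+NDST3 against sham it called 0, DESeq2 3 and leaving out 1 library 0 to 1. The 2-fold rule called 9, 5 and 3 members in the 3 comparisons, with ranges of 6 to 11, 4 to 9 and 3 to 10 over the libraries left out. Limma on log2(FPKM + 1) gave 4 by that rule in 6-OHDA against sham and 1 in 6-OHDA+NDST3 against 6-OHDA, where DESeq2 gave 3. Lag3, Pdcd1, Havcr2 and Il7r in 6-OHDA against sham, and Lag3, Pdcd1 and Havcr2 in 6-OHDA+NDST3 against sham, kept the 2-fold call in all 13 alternatives, and no member did in 6-OHDA+NDST3 against 6-OHDA. The cause of these shifts was not tested.

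The replicate number as a block left 3 adjusted calls in 6-OHDA against sham and 1 call by the 2-fold rule in 6-OHDA+NDST3 against 6-OHDA. Same-numbered sham and 6-OHDA+NDST3 libraries deviated in opposite directions (correlation -0.43). With 2 libraries in each of these groups, this cannot show whether same-numbered libraries were handled together. A block with crossed numbers, chosen after seeing the data, gave 4 adjusted calls in 6-OHDA+NDST3 against 6-OHDA, and 3 adjusted calls and 5 by the 2-fold rule in 6-OHDA+NDST3 against sham.

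In cluster 4, a size rule of 0.5 in place of 1 gave 12 higher and 1 lower member, against 0.801% and 0.724% of the genes detected there. A size rule of 0.25 gave 21 and 4 members, against 3.43% and 3.59% of these genes. At a 1.5-fold threshold, 2, 1 and 2 CUT&RUN regions of members passed in 6-OHDA against sham, 6-OHDA+NDST3 against 6-OHDA and 6-OHDA+NDST3 against sham. For ATAC-seq, 3, 2 and 2 passed in that order, and a pseudocount of 0.1 gave 2 ATAC-seq regions in the first. The share of all regions was not computed at these settings, so the counts are not read as a result about the members. Members with few counts, Themis, Gzma and Cd28 among them, limit what these depths can show.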

Other observations

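Genes of the related lists that were not described by cluster above had the following single-cell means, in the 6-OHDA and the 6-OHDA+NDST3 library in that order, and were chosen after their values were seen. In the T cell-like cluster 4, Ccl5, a chemokine of cytotoxic lymphocytes, stood at 2.56 and 3.02, and Cxcr6, a receptor of tissue-resident T cells, at 1.2 and 1.77. Cd69, an early activation and residency marker, stood at 1.1 and 0.745 there. In cluster 8, Cxcr6 was at 1.03 and 0.724. Klrd1, a receptor of natural killer cells and CD8 T cells, stood at 0.617 and 0.995 in cluster 4, whereas Ncr1, a marker of natural killer cells, stood at 0.398 and 0.0494.

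Ligands of the checkpoint and costimulatory receptors were found in lymphoid and other clusters, with 7 and 8 of 18 over 0.1 in cluster 4 and 8 in each library in cluster 8. Cd86 was highest in cluster 6, at 2.05 and 2.35, and stood at 1.13 and 1.9 in cluster 9, where all 9 B cell markers were over 0.1. Cd274, which encodes the PD-1 ligand PD-L1, was highest in cluster 1, at 1.27 and 1.42, and stood at 0.802 and 0.822 in cluster 4. Lgals9 stood at 0.541 and 0.543 in cluster 6 and at 0.59 and 0.6 in cluster 7. Cxcl9 was under 0.02 in every cluster of the 6-OHDA library and at 0.146 in cluster 3 of the 6-OHDA+NDST3 library. In whole tissue, by contrast, Cxcl9 was at 1.43 CPM in 6-OHDA, and at 0.487 and 0.888 CPM in 6-OHDA+NDST3. These differences have no replicate check.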
